A study of Mus musculus with 8 samples.

Results

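Windows of 1 kb that are rich in CpG and yet highly methylated were followed in the liver DNA of mice with nonalcoholic steatohepatitis (NASH) and of mice on a normal diet (ND). The genome was divided into windows that start at multiples of 1000 bases. A window belonged to the set if the table listed 80 or more CpG cytosines in it, which is 40 CpGs with both strands counted, and if their mean methylation over all 8 libraries was above 70%. This held for 1217 windows, which is 7.38% of the 16481 CpG-dense windows and a small fraction of the 1609811 windows with at least 6 listed cytosines. The level over all 8 libraries therefore chose the windows and is given as a description. The difference between the diets was not used in choosing them.

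Cytosine methylation at CpG is the common state of the mammalian genome. Methylated cytosine deaminates to thymine, so CpG is scarce in most of the genome and remains dense mainly in CpG islands, which commonly lie at gene starts and are kept unmethylated. Dense CpG that is methylated is known from the promoters of genes used in germ cells and silenced in the body, from imprinted regions, from exons within genes and from repeated sequences such as young transposons. Methylation is set and copied by the Dnmt enzymes and oxidised by the Tet enzymes.

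Whole-genome bisulfite sequencing, in which unmethylated cytosines are read as thymine, gave a percent methylation for each CpG cytosine in 8 liver libraries of male C57BL/6J mice of wild-type genotype. The mice were 8 weeks old when bought. The 4 NASH libraries stand for the diet rich in fat, cholesterol and fructose, and the 4 ND libraries, which are titled WT, for the normal diet, each given for 28 weeks. Titles and column names set the groups. The labels' treatment entries put the same samples the other way round, and if they were right, every direction below would turn round. Whether each library is a separate mouse is not stated, so the tests measure the spread between libraries. The table held chromosomes 1 to 4 and 10 to 19 and chromosome 5 to position 117098872. Read counts are not in it, and the depth behind a level is unknown. An exact 0 also occurs among highly methylated neighbours, and a 0 whose 10 nearest cytosines had a median of 50% or more is called a doubtful zero below. Window coordinates are given as deposited, which lie 1 base above those of RefSeq (GRCm38.p6, the assembly behind mm10).

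Gene starts in these windows show what methylated dense CpG looks like. The following RefSeq sequences (GRCm38.p6) run 5′ to 3′ from 250 bases before to 50 bases after the start, with each CpG in capitals. The first has the most CpGs of all gene starts in the set, and the next 3 belong to germ cell genes: Dazl, an RNA-binding protein of germ cells, Hormad1, a protein of the meiotic chromosome axis, and Mael, which acts in transposon silencing by piRNA. Gm33516 is a long noncoding RNA beside testis histone genes, in a window whose CpG spacing recurs elsewhere, and Tet2, a gene for a methylcytosine oxidase, is shown as an unmethylated CpG-dense start.
4933428G20Rik: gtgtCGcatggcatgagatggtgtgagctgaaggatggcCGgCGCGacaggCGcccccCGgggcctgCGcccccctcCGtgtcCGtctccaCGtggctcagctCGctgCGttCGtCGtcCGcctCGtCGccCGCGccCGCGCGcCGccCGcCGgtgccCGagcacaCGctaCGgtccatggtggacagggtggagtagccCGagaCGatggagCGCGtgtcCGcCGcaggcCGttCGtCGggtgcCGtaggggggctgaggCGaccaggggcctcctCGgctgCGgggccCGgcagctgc
Dazl: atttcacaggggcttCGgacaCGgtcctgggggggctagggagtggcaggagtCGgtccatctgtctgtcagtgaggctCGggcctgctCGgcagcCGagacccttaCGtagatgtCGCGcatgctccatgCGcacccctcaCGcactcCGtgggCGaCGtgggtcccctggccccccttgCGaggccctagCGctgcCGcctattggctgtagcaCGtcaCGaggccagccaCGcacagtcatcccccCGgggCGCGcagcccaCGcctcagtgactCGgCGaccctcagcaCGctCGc
Hormad1: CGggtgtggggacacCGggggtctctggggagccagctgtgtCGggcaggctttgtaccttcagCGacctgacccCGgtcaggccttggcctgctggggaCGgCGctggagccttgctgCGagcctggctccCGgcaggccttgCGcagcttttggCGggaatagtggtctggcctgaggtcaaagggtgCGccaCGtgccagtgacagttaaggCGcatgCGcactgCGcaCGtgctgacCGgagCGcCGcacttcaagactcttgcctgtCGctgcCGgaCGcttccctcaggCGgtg
Mael: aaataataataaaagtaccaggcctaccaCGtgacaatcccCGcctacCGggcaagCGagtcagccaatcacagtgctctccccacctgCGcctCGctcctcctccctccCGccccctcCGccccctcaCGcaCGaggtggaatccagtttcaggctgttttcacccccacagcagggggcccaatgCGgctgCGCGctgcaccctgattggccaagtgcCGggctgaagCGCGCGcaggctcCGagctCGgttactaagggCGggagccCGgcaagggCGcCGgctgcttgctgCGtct
Gm33516: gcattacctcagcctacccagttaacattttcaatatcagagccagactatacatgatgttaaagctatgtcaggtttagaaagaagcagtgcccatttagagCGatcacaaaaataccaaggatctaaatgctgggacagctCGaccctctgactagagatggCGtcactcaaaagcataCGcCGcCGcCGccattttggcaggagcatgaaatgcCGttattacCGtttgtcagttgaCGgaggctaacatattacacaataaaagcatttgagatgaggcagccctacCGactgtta
Tet2: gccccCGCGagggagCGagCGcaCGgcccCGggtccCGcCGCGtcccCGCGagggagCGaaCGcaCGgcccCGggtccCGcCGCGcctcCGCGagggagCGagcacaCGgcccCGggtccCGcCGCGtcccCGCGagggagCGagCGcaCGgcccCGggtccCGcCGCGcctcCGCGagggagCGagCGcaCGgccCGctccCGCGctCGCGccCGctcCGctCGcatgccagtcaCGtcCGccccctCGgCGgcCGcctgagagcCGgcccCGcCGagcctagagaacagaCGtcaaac
They lie at chr11:97500291-97500590, minus strand (4933428G20Rik), chr17:50293571-50293870, minus strand (Dazl), chr3:95559427-95559726, plus strand (Hormad1), chr1:166238695-166238994, minus strand (Mael), chr13:23933187-23933486, plus strand (Gm33516) and chr3:133544341-133544640, minus strand (Tet2). The 42 CpGs of 4933428G20Rik had a level of 79.9 ± 9.01% in NASH and 86.8 ± 5.60% in ND (SD, n = 4 each, here and below). Over the 28 CpGs of the Dazl start it was 96.1 ± 3.91% in NASH and 91.1 ± 11.6% in ND, over the 24 of Hormad1 92.7 ± 1.604% in NASH and 88.7 ± 3.399% in ND, and over the 24 of Mael 74.96 ± 14.7% in NASH and 74.6 ± 7.88% in ND. The Gm33516 start, with 11 CpGs, stood at 95.6 ± 1.24% in NASH and 97.3 ± 1.89% in ND. Tet2 has 57 CpGs in the same length, more than any of the methylated starts, and its level was 1.004 ± 1.44% in NASH and 0.714 ± 1.03% in ND. High CpG content thus occurred with both states.

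The methylated windows held a median of 88 listed cytosines and at most 243. Their level had a median of 86.2%, with a lowest value of 70.0003% and a highest of 97.8%. It was above 80% in 864 windows (70.99%), above 90% in 385 (31.6%) and above 95% in 75 (6.16%). Of the other CpG-dense windows, 12880 (78.2% of all) were at or below 20% and are called unmethylated here, and 2384 (14.5%) lay above 20% and up to 70% and are called intermediate. The set was not cut at a gap in level: the windows just above the limit were at 70.0003% (chr12:17874000-17874999), 70.05% (chr4:8398000-8398999) and 70.06% (chr10:127239000-127239999, in Kif5a, a kinesin motor gene), and those just below at 69.86%, 69.86% and 69.85%. In density, 164 members had exactly 80 listed cytosines, and 212 windows above 70% had 78 or 79. Counts by level are shown in the plot of CpG-dense windows, with higher counts between 85% and 95% than just above 70%.

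**Figure D1:**
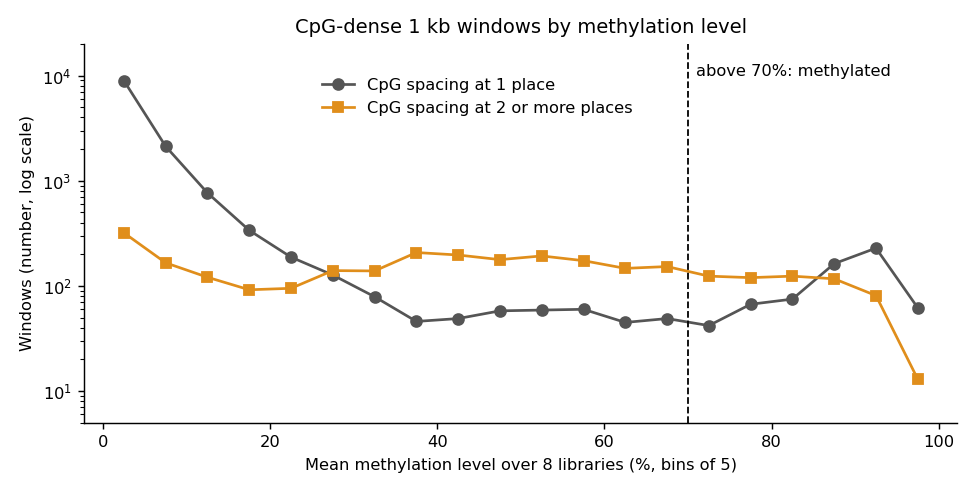
Number of CpG-dense windows (log axis) in each 5% bin of mean methylation level over 8 libraries, separately for windows whose CpG spacing was found at 1 place and at 2 or more places. The lowest bin holds 9272 windows in all, and the bin from 90% to 95% holds 310, of which 81 have a repeated spacing.

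Few of the methylated windows lay at gene ends. A gene end was the stretch from 1000 bases outside to 500 bases inside either end of a protein-coding gene. Of the 1217 windows, 96 (7.89%) overlapped a gene end, 588 (48.3%) lay inside a gene and 533 (43.8%) were intergenic. In the unmethylated CpG-dense windows the shares were 68.1%, 23.3% and 8.61%, so gene ends took most of those. Intermediate windows had 11.5% at gene ends, 35.03% inside genes and 53.5% between them. CpG-sparse windows above 70%, of which every 100th was placed, had 2.64%, 42.8% and 54.6%. With noncoding and other annotated genes added, 170 methylated windows were at a gene end, 622 inside a gene and 425 intergenic. Sides were counted from genes of known strand. Of the 96 windows at protein-coding gene ends, 39 touched only a far end, 34 only a start and 6 both. In the other 17, no gene touched had a known strand. Neighbouring windows in the genome make these shares descriptive, with no test.

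**Figure D2:**
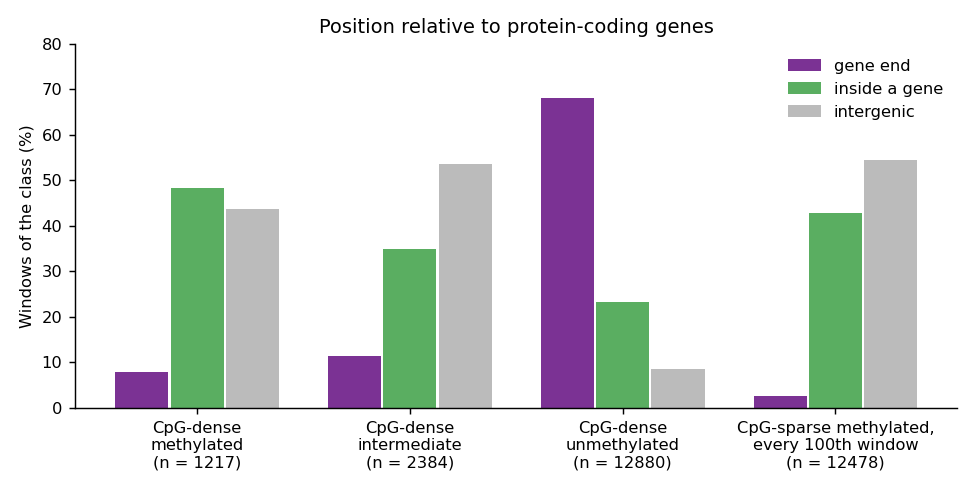
Share of windows (%) at a gene end, inside a gene and intergenic for the 1217 CpG-dense methylated windows and for CpG-dense intermediate, CpG-dense unmethylated and CpG-sparse methylated windows. Gene ends make up 7.89% of the CpG-dense methylated windows and 68.1% of the CpG-dense unmethylated ones.

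The surroundings were methylated as well. CpG-sparse windows directly next to a methylated CpG-dense window had a median level of 83.7%, against 37.7% next to an unmethylated one and 66.1% next to an intermediate one. At a distance of 5 kb the medians were 80.3%, 81.9% and 71.1%. An unmethylated CpG-dense window lay within 2 kb of 35 members (2.88%), namely of 9 at gene ends, 22 inside genes and 4 intergenic ones. Most windows stood alone: 1099 had no member beside them, 88 stood in pairs, 15 in runs of 3, 5 in a run of 5 and 10 in a run of 10. Per chromosome the set held between 34 windows (chromosome 19, 4.73% of its CpG-dense windows) and 133 (chromosome 4, 8.30%), and its share was highest on chromosome 15 at 9.33%.

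Gene starts in the set were rare, and 9 of the genes were on the list of germ cell genes. That list was chosen with earlier results of these data known. Of 11637 protein-coding genes with a RefSeq start on the chromosomes held, 31 (0.266%) had one in a methylated CpG-dense window. In an intermediate window 113 (0.971%) had one, and in an unmethylated window 6049 (52.0%). Any RefSeq start of a gene counted, so a gene with several starts could stand in several classes. For Adcy3, Dmrtb1, Rnf212b, Fignl2 and Hsf5 the window in the set lay inside the gene and did not reach an annotated end of it. Meiotic chromosome genes were Sycp2 and Sycp3, whose proteins build the axis of the synaptonemal complex, Syce3, a part of its centre, Hormad1, and Hsf2bp and Ankrd31, which act in meiotic recombination. Other germ cell genes were Dazl, Mael, Brdt (a testis bromodomain protein), Tex14 (intercellular bridges), Sohlh2 (a germ cell transcription factor), Btbd18 (piRNA transcription), Dmrtb1 (entry into meiosis), the testis copies Rpl10l, Naa11 and D1Pas1 of genes used in all cells, and the testis histone genes H2ac1 and H2bc1. On the list were Dazl, Dmrtb1, Hormad1, Mael, Brdt, Tex14, Sycp2, Sycp3 and Rpl10l. The others named here were grouped by their known roles after the data were seen. The remaining protein-coding genes were not grouped: Adcy3, an adenylyl cyclase gene, Jade1, Fam178b, Hsf5, Rnf212b, Fignl2, Taf7l2, Stpg4, Trim52, 4933428G20Rik, 1700020D05Rik, 1700024J04Rik and 1700029P11Rik.

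Levels over the 300 bases at the start were above 70% in 32 of the 36 genes, noncoding ones included, with a median of 87.8%. These bases lie wholly or partly in windows chosen for a level above 70%. The count is therefore largely set by the choice and is a description. The Hormad1 start had 93.6, 93.5, 93.4 and 90.3% in NASH libraries 1 to 4, against 91.4, 84.4, 91.4 and 87.4% in ND libraries 1 to 4. Brdt had 90.7, 89.03, 93.7 and 80.9% in NASH libraries 1 to 4, against 86.8, 92.4, 86.4 and 87.99% in ND libraries 1 to 4. Both starts were high in all 8 libraries. At Dazl the levels were 98.2, 99.1, 90.4 and 96.6% in NASH libraries 1 to 4, against 95.98, 97.3, 97.4 and 73.8% in ND libraries 1 to 4, with only ND library 4 below 90%. The whole Dazl window was lower, at 74.2, 77.2, 75.6 and 75.9% in NASH libraries 1 to 4, against 78.2, 76.5, 77.7 and 64.04% in ND libraries 1 to 4, so its start was more methylated than the rest of its kilobase. Adcy3, at a RefSeq start inside the gene, was the opposite case. It had 83.2 ± 7.29% in NASH and 77.2 ± 3.84% in ND over the window. Over the 7 CpGs around this start it had 32.8 ± 9.45% in NASH and 35.9 ± 6.58% in ND. Sycp2 stood at 59.7 ± 7.02% in NASH and 67.7 ± 2.41% in ND around its start.

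**Figure D3:**
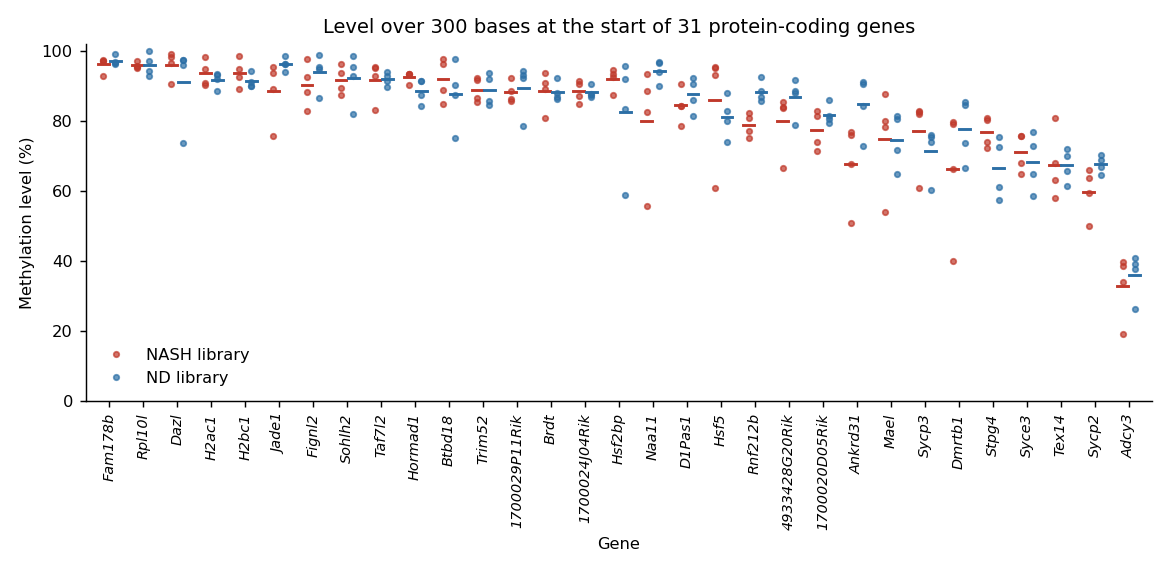
Methylation level (%) over 300 bases at a RefSeq start of the 31 protein-coding genes with such a start in a CpG-dense methylated window, in order of level. There is 1 point per library and a line at the mean of each group (NASH left, ND right). Most genes lie above 70% in both groups, which is largely set by the choice of windows above 70%. Adcy3 is lowest at 32.8% in NASH and 35.9% in ND.

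These starts had fewer CpGs than unmethylated ones. The median was 17 CpGs per 300 bases in the 31 starts, 26 in the 6049 unmethylated CpG-dense starts and 16 in all 11637, with GC contents of 60.7%, 65.3% and 58.0%. Short motifs were searched on both strands of the same 300 bases. The E-box CACGTG, bound by basic helix-loop-helix factors, was in 6 of the 31 (19.4%), in 11.2% of the unmethylated starts and in 8.41% of all. Its 6 genes were Brdt, Fam178b, Hormad1, Mael, Sycp3 and 4933428G20Rik. The E2F-like motif GCGGGAA was in 7 (22.6%), against 9.82% and 6.42%, and the GC box GGGCGG in 16 (51.6%), against 75.7% and 50.2%. CCAAT was in 12 (38.7%), against 36.1% and 37.7%, and TATAAA in 3 (9.68%), against 5.19% and 12.5%. A match of letters is no binding site, and the numbers of starts in the set are small.

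Among 35 germ cell genes on the chromosomes held, 13 had a member at an end or inside, beside 4.19% (621 of 14808) of all protein-coding genes. The list was chosen with earlier results of these data known, so this contrast is a description and no test. Of the 28 with a RefSeq start, 17 began in a CpG-dense window: 9 genes had a methylated start, 5 an intermediate one and 4 an unmethylated one, with 1 gene counted under 2 of these through different starts. The 13 windows ranged in level from 72.5% to 93.5%. Sycp1, a synaptonemal complex gene with a member at its start region though not at the start itself, had 89.6, 89.5, 92.9 and 93.8% in NASH libraries 1 to 4, against 87.1, 92.96, 73.00 and 80.8% in ND libraries 1 to 4 in chr3:102935000-102935999. The NASH libraries lay close together, and the ND libraries spread more widely and overlapped them.

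Windows at gene ends with the most CpGs included those at the starts of Dazl and D1Pas1, named above. The others, given here, were at genes that were not on the list of germ cell genes. The densest, chr11:97500000-97500999 with 240 listed cytosines, held the start of 4933428G20Rik overlapping Arhgap23 and had 82.7 ± 5.19% in NASH and 85.4 ± 1.53% in ND. The window chr10:79735000-79735999, with 216, covered the neighbouring ends of Hcn2, a pacemaker channel gene, and Polrmt, the mitochondrial RNA polymerase gene, at 79.6 ± 4.85% in NASH and 77.9 ± 4.18% in ND. At chr11:87617000-87617999, with 206 around an end of Mtmr4 and a RefSeq start inside Hsf5, the levels were 67.1, 94.5, 66.6 and 77.3% in NASH libraries 1 to 4, against 70.6, 70.96, 84.4 and 86.9% in ND libraries 1 to 4. NASH library 2 stood far above the other NASH libraries there, and the groups overlapped. Near Grin3b and Tmem259 3 adjacent windows were members, the middle one at 96.1, 90.3, 92.7 and 85.5% in NASH libraries 1 to 4, against 80.6, 92.1, 84.7 and 52.5% in ND libraries 1 to 4. ND library 4 was lowest by a wide margin in that window.

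Inside genes, no gene held more methylated CpG-dense windows than Plec, which encodes plectin, a giant linker of the cytoskeleton. It had 11 windows, of which 10 were adjacent at chr15:76172000-76181999. Their levels ran between 75.6% and 97.8%, and chr15:76173000-76173999 was the most methylated window of the whole set, at 97.8, 98.2, 99.4 and 97.8% in NASH libraries 1 to 4, against 98.7, 95.1, 97.8 and 97.5% in ND libraries 1 to 4. All 8 libraries were above 95% there. The least methylated of the run, chr15:76179000-76179999, had 83.6, 75.5, 82.98 and 70.2% in NASH libraries 1 to 4, against 78.8, 68.2, 66.2 and 79.2% in ND libraries 1 to 4, and 21.7% of its values were doubtful zeros, against 0.651% in the most methylated one. Spen, a transcriptional repressor gene, held the run of 5 at chr4:141474000-141478999, with levels between 82.1% and 94.4%. Celsr2, a gene for a cadherin receptor of planar cell polarity, held 4 windows between 86.9% and 96.4%, and Polrmt held 3. The window with most listed cytosines of all, 243, was chr5:92942000-92942999 in Shroom3, a regulator of actin and cell shape, at 94.03, 75.7, 90.8 and 93.4% in NASH libraries 1 to 4, against 95.4, 89.95, 84.5 and 91.7% in ND libraries 1 to 4. NASH library 2 was lowest there, and also in the densest intergenic window, chr4:156137000-156137999 with 214, at 90.8, 84.1, 91.9 and 92.1% in NASH libraries 1 to 4, against 93.2, 90.7, 90.95 and 95.2% in ND libraries 1 to 4.

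Of 37 giant cytoskeletal and scaffold genes, 12 held a member, with 29 windows and a median level of 89.3%: Plec, Ahnak2, Dst, Evpl, Dsp, Cacna1i, Cacna1h, Syne1, Syne2, Sptb, Ttn and Eppk1. Ahnak2, a giant scaffold protein gene, had 3 windows at 70.6% to 74.0%, each with a CpG spacing found at 2 places, and Dst, a gene for a plakin linker, had 3 at 86.7% to 96.4%, each with a spacing found at 1 place. Of 21 cadherin, plexin and giant receptor genes, 6 held 14 windows with a median of 89.2%: Celsr1, Celsr2, Plxnb2, Lrp1, Lrp1b and Ptprs. Over all protein-coding genes, 4.19% had a member at an end or inside. Both lists hold giant genes, which span more windows, and gene length was not taken into account. They were also chosen with earlier results of these data known. Of these lists, the 16 scaffold genes and the 15 receptor genes with a CpG-dense RefSeq start all had an unmethylated one. Of 41 collagen and basement membrane genes, 2 held a member, Col6a2 at 91.8% and Hspg2, the perlecan gene, at 88.0%.

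Imprinted genes held 3 windows in 27 genes. Grb10, a growth-restraining adaptor expressed by parent of origin, had the window chr11:12026000-12026999 with 202 listed cytosines at 86.8, 66.9, 71.04 and 80.1% in NASH libraries 1 to 4, against 56.4, 59.5, 64.3 and 80.9% in ND libraries 1 to 4. The groups overlapped and the spread was wide. Kcnk9, a potassium channel gene, stood at 92.8% and Trappc9 at 94.0%. Of the 15 imprinted genes with a CpG-dense start, 0 had a methylated start, 9 had an intermediate one and 8 an unmethylated one, some of them both at different starts. Clustered protocadherins, adhesion genes of neurons with many alternative first exons, held 4 windows on chromosome 18, counted for 8 overlapping or neighbouring genes, at 75.2% to 91.0%. The predicted genes Gm37013 and Gm38666 span the same 4 windows. The CpG spacing of chr18:36981000-36981999 and of chr18:36988000-36988999 was found at 548 places each. That of chr18:36969000-36969999 was found at 2 places and that of chr18:37521000-37521999 at 1 place.

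The lists of hepatocyte, methylation enzyme and homeobox genes were empty: 0 of 26 hepatocyte identity genes, 0 of 9 DNA methylation enzyme genes and 0 of 32 Hox and Dlx genes held a member. All CpG-dense starts in those lists, which are 4, 6 and 10, were unmethylated. Of 37 lipid, cholesterol and bile acid genes, only Acacb, which makes malonyl-CoA at mitochondria, held one, inside the gene at 90.2%.

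Intergenic windows mostly repeated a CpG spacing found elsewhere. The distances over 13 consecutive CpGs were compared across the table in both orientations, and a spacing found in 2 or more separate stretches of 10 kb was counted as repeated. This is a measure of the positions alone and does not name the repeat. It held for 579 members (47.6%), for 68.1% of intermediate and for 5.88% of unmethylated CpG-dense windows. Of the 96 members at gene ends it held for 5 (5.21%), of the 588 inside genes for 135 (23.0%) and of the 533 intergenic for 439 (82.4%). Some spacings recurred at up to 548 places.

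Repeated windows were less methylated as deposited and varied more. The 638 windows with a spacing at 1 place had a mean level of 87.6%, the 123 at 2 to 5 places 84.6%, the 244 at 6 to 50 places 82.9% and the 212 at over 50 places 79.6%. Median SD within a group was 3.90, 5.36, 6.40 and 7.82 points in the same order. Doubtful zeros made up 4.61%, 7.87%, 10.1% and 11.96% of values. With doubtful zeros left out, the means were 91.6%, 91.7%, 92.1% and 90.3%, within 2 points of each other. Leaving out zeros can only raise a mean, and raises it more where they are more frequent. The closeness of these means is thus partly set by the definition of the zeros. The part of repeated sequence in these zeros was not tested. Over the whole set the median SD was 5.0004 points, against 3.68 points in CpG-sparse methylated windows, and without doubtful zeros it was 2.28 and 3.33 points. This removal took out only the lowest values, and a larger share of them in the set, so the changed order is partly set by it. Levels also took part in choosing the windows, so the order of the means is a description.

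**Figure D4:**
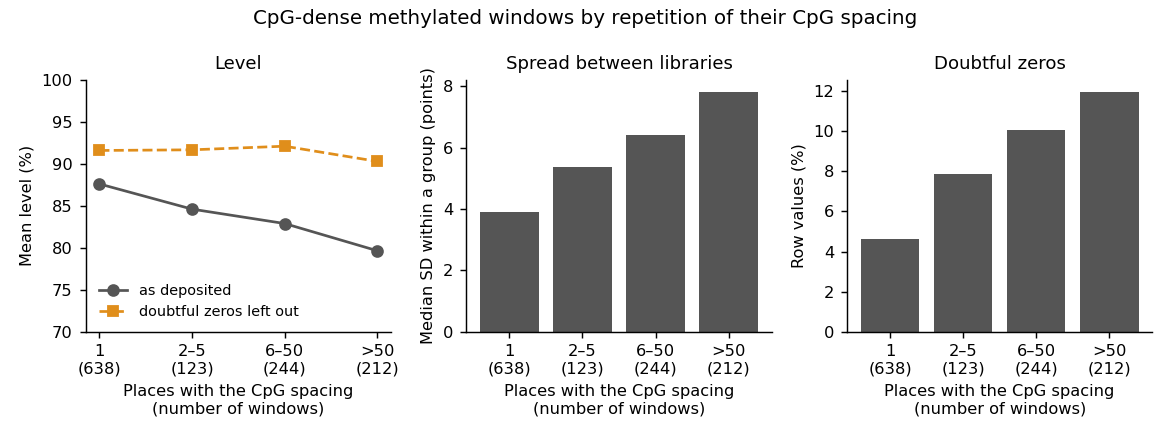
CpG-dense methylated windows grouped by the number of places at which their CpG spacing was found (number of windows in brackets), with mean level (%) as deposited and without doubtful zeros, median SD within a group (percentage points) and share of doubtful zeros (% of values). As deposited the level goes from 87.6% to 79.6% across the groups, and without doubtful zeros it stays between 90.3% and 92.1%.

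Between the diets the set as a whole did not differ beyond the spread of the libraries. Its mean level was 85.5, 83.8, 85.1 and 85.2% in NASH libraries 1 to 4, against 85.7, 85.4, 84.4 and 84.6% in ND libraries 1 to 4. The groups overlapped, and their means were 84.9 ± 0.727% in NASH and 85.0 ± 0.625% in ND (difference -0.147 points, exact two-sided permutation test, p = 0.771, where 4 against 4 libraries can reach 0.0286). At gene ends the means were 85.6 ± 0.844% in NASH and 85.3 ± 0.842% in ND, inside genes 86.5 ± 0.742% in NASH and 86.7 ± 0.904% in ND, and in intergenic windows 83.0 ± 0.724% in NASH and 83.1 ± 0.378% in ND. The adjusted p over these 3 classes was 0.771 for each (exact permutation test). Without doubtful zeros the difference of the whole set was -0.265 points (p = 0.0857, exact permutation test). As deposited, it turned to 0.204 points without NASH library 2 and to 0.0867 points without ND library 1. That at gene ends was 1.79 points in windows of 100 or more rows and -0.275 points without doubtful zeros. The differences between the classes did not pass either (adjusted p = 0.514, 0.514 and 0.886, exact permutation test over the 3 pairs). In bulk liver DNA, a change in methylation and a change in the mix of cells cannot be told apart.

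CpG-sparse methylated windows averaged 83.8 ± 0.728% in NASH and 84.7 ± 0.605% in ND, a difference of -0.926 points (p = 0.0571, exact permutation test). The difference of the CpG-dense set was 0.779 points above this, which did not pass (p = 0.314, exact permutation test), and against intermediate windows it was -0.0788 points (p = 0.771, exact permutation test). Start windows of 6 of 8 hepatocyte marker genes averaged between 37.5% and 43.6% in NASH libraries and between 24.97% and 31.2% in ND libraries, and those of 3 of 4 neutrophil genes between 62.3% and 72.1% in NASH and between 73.8% and 76.9% in ND. The library averages overlapped for 2 of 3 macrophage genes (48.1% to 51.9% in NASH, 47.8% to 56.4% in ND), 2 of 3 stellate cell genes (35.7% to 41.5% in NASH, 32.9% to 42.8% in ND) and 2 of 3 endothelial genes (26.1% to 29.97% in NASH, 25.8% to 32.9% in ND). The 2 macrophage genes went opposite ways. C1qb had 59.95 ± 4.12% in NASH and 70.3 ± 3.71% in ND, and Mpeg1 had 39.3 ± 2.37% in NASH and 37.7 ± 5.05% in ND. The part of these marker genes in the results here was not tested. Doubtful zeros made up 7.23 ± 0.664% of values in NASH and 7.37 ± 0.642% in ND (ranges over libraries 6.75% to 8.20% in NASH and 6.69% to 7.995% in ND), and in CpG-sparse methylated windows 1.5003% in NASH and 1.56% in ND.

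No single window passed. In limma, fitted to all 1609811 windows, 0 of the 1217 members had an adjusted p under 0.05, where 0.000373% of all windows did. At an unadjusted p under 0.05 stood 74 (6.08%), of which 30 were higher and 44 lower in NASH, beside a background of 10.9%. The libraries of the diets did not overlap in 42 members (3.45%), beside 6.49% of all windows: 18 were higher in NASH (background 2.78%) and 24 lower (background 3.71%). These shares lie below the background. Median differences were -0.0967 points in the set and -0.633 points over all windows. In simulated data, drops of 20 points in 100 windows of the full fit were called in 17 and drops of 40 points in 64, and 6 unchanged windows were called. The simulated windows were drawn independently of each other, with no other difference between the diets. In the deposited values 10.9% of windows had an unadjusted p under 0.05. The simulated shares therefore do not give the sensitivity of the fit to the deposited values.

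**Figure D5:**
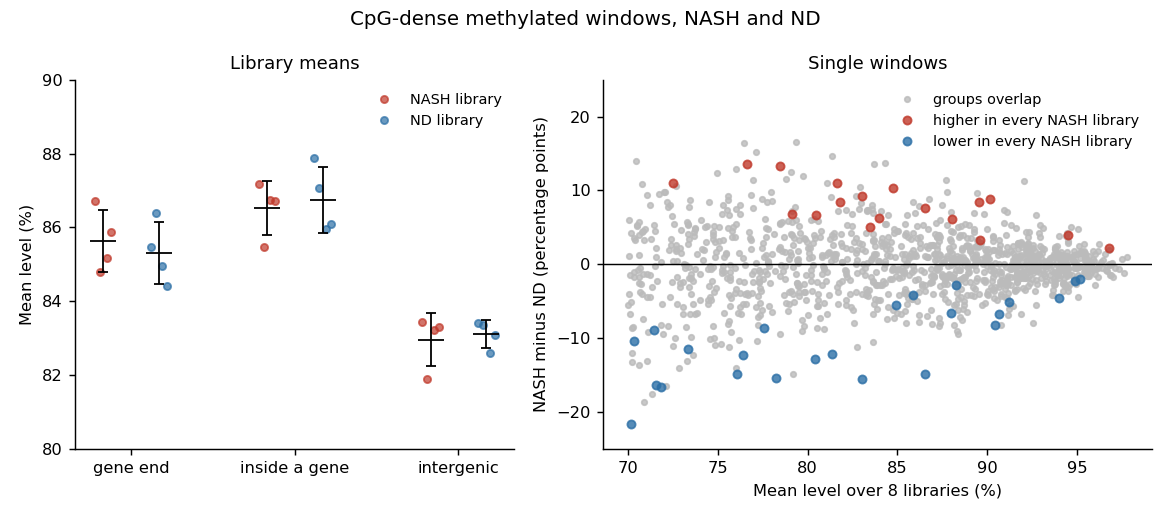
Left, mean level (%) of the CpG-dense methylated windows in each library by location, with mean and SD of the 4 NASH (left) and 4 ND libraries (right); the axis begins at 80%. Right, difference NASH minus ND (percentage points) of each of the 1217 windows against its mean level, with the 18 windows that were higher and the 24 that were lower in every NASH library in colour.

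Among windows whose libraries did not overlap, the smallest adjusted p belonged to chr15:97245000-97245999, with 88 listed cytosines at the start region of Pced1b and within Amigo2, a gene for a neuronal adhesion protein. It had 79.4, 81.03, 79.1 and 76.6% in NASH libraries 1 to 4, against 94.4, 94.2, 90.9 and 96.2% in ND libraries 1 to 4. NASH libraries were all below ND libraries, a difference of -14.9 points (SE 1.67, limma adjusted p = 0.0694). With only windows of at least 20 rows in the fit, this window was called (limma adjusted p = 0.0495), and the smallest adjusted p among members ranged from 0.0495 to 0.461 over the alternatives. Within Mycn, a growth-promoting transcription factor gene, chr12:12937000-12937999 had 74.4, 81.3, 73.9 and 71.7% in NASH libraries 1 to 4, against 93.7, 86.3, 89.9 and 93.3% in ND libraries 1 to 4. Every NASH library was below every ND library, with a difference of -15.5 points (SE 2.62, limma adjusted p = 0.115). Apbb2, a gene for an adaptor of the amyloid precursor protein, had the largest difference of the set, in chr5:66466000-66466999: 68.3, 65.7, 62.1 and 41.2% in NASH libraries 1 to 4, against 76.3, 72.4, 88.3 and 86.9% in ND libraries 1 to 4. NASH library 4 was far below the others, and the difference was -21.7 points (SE 6.40, limma adjusted p = 0.274). The window in Pamr1 differed by -16.7 points (SE 5.32, limma adjusted p = 0.305), and the intergenic windows at chr11:13546000-13546999 and chr5:6484000-6484999 by -16.4 points (SE 5.92, limma adjusted p = 0.361) and -15.3 points (SE 3.61, limma adjusted p = 0.190). In these last 3, between 17.6% and 18.8% of values were doubtful zeros and the CpG spacing was repeated. Without doubtful zeros the difference at chr5:6484000-6484999 had the other sign, at 0.548 points, and without any zero so did that at chr11:13546000-13546999, at 0.585 points.

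Higher in every NASH library was chr12:111774000-111774999 in Klc1, a kinesin light chain gene, at 80.4, 81.2, 88.7 and 83.4% in NASH libraries 1 to 4, against 70.6, 65.4, 69.8 and 73.5% in ND libraries 1 to 4, a difference of 13.6 points (SE 2.73, limma adjusted p = 0.147). The window in the predicted gene LOC115489542 differed by 13.3 points (SE 3.02, limma adjusted p = 0.177). Sycp2, whose start lies in chr2:178407000-178407999, had 80.5, 73.8, 76.97 and 80.7% in NASH libraries 1 to 4, against 67.8, 73.8, 70.9 and 55.4% in ND libraries 1 to 4. The lowest NASH value was barely above the highest ND value, and the difference was 11.03 points (SE 4.13, limma adjusted p = 0.378). Around the start itself the difference had the other sign, at -7.92 points over 10 CpGs. Ipmk, an inositol phosphate kinase gene, differed by 10.96 points (SE 2.91, limma adjusted p = 0.232), the intergenic window chr11:79236000-79236999 by 10.3 points (SE 2.95, limma adjusted p = 0.262) and Rgl1, a Ral exchange factor gene, by 9.29 points (SE 3.89, limma adjusted p = 0.434). None of these 12 passed, and they were chosen for their size.

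Gene starts showed no common direction. Of the 36 genes with a RefSeq start in the set, 18 had a higher window level in NASH, with a median difference of 0.0136 points. The libraries did not overlap in 1 higher (Sycp2) and 1 lower (Fignl2), beside 2.78% and 3.71% of all windows. Over the lists, 0 windows were called in any. The median difference was 1.61 points in the 13 germ cell windows (9 higher in NASH) and 1.02 points in the 29 scaffold gene windows (15 higher). It was -1.603 points in the 14 receptor gene windows (5 higher). In the smaller lists it was 3.79 points for imprinted genes (3 of 3 windows higher) and 3.59 for collagen and basement membrane genes (2 of 2). It was 2.21 for protocadherins (2 of 4) and -3.07 for the 1 lipid gene window. The whole set had -0.0967 points, with 48.5% of windows higher, and all windows -0.633 points.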

How the data were processed

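Whole-genome bisulfite sequencing of 8 mouse liver libraries (4 NASH, 4 ND) was analysed from a single table. The authors deposited percent methylation for each CpG cytosine, both strands on separate rows, without read counts. FastQC and mm10 are named per the submitters' processing notes, while an aligner and a methylation caller are not named in the sources used here. Of the table, 30729668 positions on 15 chromosomes were used. Positions lie 1 above RefSeq coordinates, since all 256177 CpGs of the RefSeq gene starts are listed at that offset.

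Levels were averaged per 1 kb window and library, as deposited, zeros included. Windows with at least 6 rows were fitted with limma 3.58.1 (R 4.3.3, mean-dependent prior variance), with Benjamini-Hochberg adjustment over all of them and a threshold of 0.05. Single values were compared by exact two-sided permutation over 70 assignments. The fit was tested on simulated data. Genes came from RefSeq (GRCm38.p6). The windows and gene lists were chosen with earlier results of these data known. Named windows were those with the largest non-overlapping differences, most rows, the threshold, most windows per gene, gene starts, list genes and longest runs. The gene starts and CpG spacing were added after the data were seen. Alternatives were zeros left out, other limits, shifted windows, other fits, and each library left out in turn.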

Additional observations from a re-analysis of the deposited data

Results flagged for a closer look

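A library that stood apart from the other 3 of its group by Dixon's criterion was found in 23 of 230 groups of values, or 10.0%, where chance gives about 1 in 20 for each group. NASH library 2 accounted for 7 of them, ND library 4 for 4, ND library 3 and NASH library 1 for 3 each, ND library 2 and NASH library 4 for 2 each, and ND library 1 and NASH library 3 for 1 each. Each value is given beside the range of the other 3 libraries of its group.

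In NASH library 1, Celsr2 (chr3:108406000-108406999) stood at 72.6% against 89.4% to 92.2%. Rpl10l (chr12:66284000-66284999) was at 90.7% against 94.3% to 94.5%. Cacna1i (chr15:80395000-80395999) was at 63.98% against 74.96% to 75.6%. In NASH library 2, the mean of the intergenic members stood at 81.9% against 83.2% to 83.4%. Dst (chr1:34179000-34179999) was at 87.6% against 94.9% to 96.1%. An intergenic window (chr4:156137000-156137999) was at 84.1% against 90.8% to 92.1%. H2ac1 and H2bc1 (chr13:23933000-23933999) was at 86.2% against 93.04% to 94.2%. Plec (chr15:76176000-76176999) was at 89.2% against 97.8% to 98.2%. Plec (chr15:76177000-76177999) was at 87.1% against 96.6% to 98.3%. The protocadherin alpha cluster (chr18:36988000-36988999) was at 89.5% against 94.6% to 95.6%. In NASH library 3, Celsr2 (chr3:108414000-108414999) stood at 96.98% against 93.5% to 93.9%. In NASH library 4, Lrp1b (chr2:41213000-41213999) stood at 87.2% against 74.4% to 76.5%. Fignl2 (chr15:101054000-101054999) was at 80.6% against 84.5% to 85.2%.

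In ND library 1, Celsr2 (chr3:108412000-108412999) stood at 98.4% against 95.4% to 95.8%. In ND library 2, Adcy3 (chr12:4134000-4134999) stood at 71.5% against 78.5% to 79.5%. Kcnk9 (chr15:72512000-72512999) was at 89.4% against 93.6% to 93.7%. In ND library 3, Spen (chr4:141474000-141474999) stood at 67.3% against 86.2% to 88.9%. Plxnb2 (chr15:89160000-89160999) was at 66.5% against 92.5% to 96.7%. Plxnb2 (chr15:89167000-89167999) was at 90.4% against 95.5% to 95.8%. In ND library 4, Kif5a (chr10:127239000-127239999) stood at 57.4% against 69.1% to 71.1%. Plec (chr15:76178000-76178999) was at 76.7% against 92.7% to 95.04%. Celsr1 (chr15:86030000-86030999) was at 90.6% against 83.8% to 83.99%. Dazl (chr17:50293000-50293999) was at 64.04% against 76.5% to 78.2%.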

How the results depend on the processing

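The mean difference between NASH and ND was small against the spread of the libraries, and its sign depended on the choice made, while no p of a class mean or class difference was below 0.05 in the alternatives with all 8 libraries (the lowest was 0.0571). With a library left out, 3 against 4 cannot go below 0.0571, so those p-values say nothing about stability. For all members the difference was -0.265 points without doubtful zeros (p = 0.0857, exact permutation test) and -0.294 points without any zero (p = 0.229, exact permutation test). It was 0.0706 points in windows of 100 or more rows, and with each library left out in turn it ranged from -0.361 to 0.204. At gene ends it was -0.275 points without doubtful zeros, -0.290 without any zero and -0.178 with window starts shifted by 500 bases, but 1.79 in windows of 100 or more rows and 0.681 with all annotated genes, and with libraries left out from -0.0252 to 0.693. Without doubtful zeros it was -0.147 points inside genes and -0.393 points in intergenic windows (unadjusted p = 0.0571 for the intergenic ones, exact permutation test). Without any zero it was -0.285 points inside genes and -0.304 points in intergenic windows. With libraries left out it ranged from -0.485 to 0.161 inside genes and from -0.329 to 0.205 in intergenic windows. For levels above 80% it was 0.0591 points in intergenic windows. Gene ends minus windows inside genes gave -0.129 without doubtful zeros and -0.00557 without any zero, but 1.89 in windows of 100 or more rows. Gene ends minus intergenic gave 1.88 there and 1.099 with all annotated genes (p = 0.0571, exact permutation test). Inside genes minus intergenic gave 0.246 without doubtful zeros, 0.0193 without any zero, 0.0648 with shifted windows and 0.232 with all annotated genes. It was -0.0106 in windows of 100 or more rows, and -0.275 to 0.211 with libraries left out. Against intermediate windows the difference was 0.109 for levels above 80%, and -0.211 to 0.0871 with libraries left out. The cause was not tested.

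With only windows of at least 20 rows in the fit, 1 member was called, chr15:97245000-97245999 at the Pced1b start region (limma adjusted p = 0.0495). Every other fit called 0, with smallest adjusted p between 0.0556 and 0.461, and with libraries left out 0 were called, with 67 to 89 members at an unadjusted p under 0.05. An exact permutation test per window could call 0 only, since its smallest p of 0.0286 belongs to the 6.49% of windows that do not overlap, the 42 members among them, and gives an adjusted p of 0.440. The median SD within a group was 1.32 points higher in the members than in CpG-sparse methylated windows. This excess was 0.225 points for members with a CpG spacing at 1 place, -1.05 points without doubtful zeros and -1.78 points without any zero. Doubtful zeros are low values among high neighbours and were more frequent in the members. Their removal therefore acts more on the spread of the members. Without doubtful zeros 1701 CpG-dense windows would lie above 70% and include all 1217 members, and without any zero 3191. The difference at chr5:6484000-6484999 was 0.548 points without doubtful zeros, and that at chr11:13546000-13546999 was 0.585 points without any zero.

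Deviations of libraries with the same replicate number correlated between -0.00532 and 0.0200 over all windows and between -0.0430 and 0.0599 over the members. These correlations were weak, but libraries with different numbers were not compared. Whether the numbers pair the libraries is therefore not settled. With the replicate block limma called 0 members (smallest adjusted p = 0.333), and the mean difference of -0.147 had p = 0.875 by an exact sign-flip test, which cannot go below 0.125 with 4 pairs. With levels but no read counts, the precision of a single level is unknown.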
